A study of Drosophila melanogaster with 2 samples.

Results

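Broad accessible regions were chosen by their width alone, as the rows of the D17 peak list that spanned 2000 bp or more, and 572 of the 26571 regions (2.15%) did so. D17 (ML-DmD17-c3) is a Drosophila line of cultured cells that comes from the larval imaginal disc of the haltere, the balancing organ behind the wing. The labels give 1 group of 2 libraries, with no treatment or genotype beyond the cell line. The assay was ATAC-seq. A transposase cuts exposed DNA and adds sequencing adapters where it cuts. The list is 1 table with no values per library, so no value below has a spread between replicates, and nothing in the labels says whether the libraries came from separate cultures. Width was measured on the same signal as everything else in the list, so broad and narrower regions are set side by side as a description, with no test.

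Most of the genome is wrapped around histones, and accessible DNA is found where nucleosomes are removed or loosely held. At a single promoter or enhancer this open stretch is usually short. Longer stretches are known at promoters shared by neighbouring genes, at clusters of enhancers of developmental genes, and along bodies of genes that are transcribed heavily. Repeated sequence can also give long covered stretches, because reads from many copies in the cell fall on the few copies in the assembly.

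The broad regions covered 1441 kb, which was 8.36% of the 17.2 Mb under all regions. Their median width was 2357 bp (25th to 75th percentile 2146.5 to 2688 bp), and the widest was 9512 bp. Widths fell off steeply, with 508 regions below 3000 bp, 64 from 3000 bp up and 15 from 4000 bp up. At the limit itself the regions were alike. Just inside it lay a region of 2001 bp in CG7432 with a fold of 2.47 and a region of 2002 bp in Ca-alpha1T, a voltage-gated calcium channel gene, with 2.41. Just outside lay 1999 bp in KrT95D with 2.40 and 1998 bp in CG9485 with 2.24. Fold here is the authors' enrichment of the read pileup at the summit, the highest point of a region, over the local background.

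Broad regions mostly lay inside genes. A summit was called gene interior when it was inside a gene and over 500 bp from any gene end, and 410 of the 572 broad regions (71.7%, exact binomial 95% interval 67.8 to 75.3%) were of that kind. Another 103 (18.0%, 14.9 to 21.4%) had a summit within 500 bp of a gene end, and 59 (10.3%, 7.95 to 13.1%) were intergenic. Among the 25999 narrower regions the shares were 63.3% gene interior, 23.7% gene end and 13.0% intergenic. These intervals cover counting error only, and neighbouring regions are not independent of each other.

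The shares moved with width below the limit too. Gene interior summits made up 59.9% of regions under 500 bp, 63.9% from there to under 1000 bp, 72.8% to under 1500 bp and 74.7% to under 2000 bp. From 2000 to under 3000 bp the share was 73.8%, and its exact binomial interval (69.8 to 77.6%) overlapped that of the class just below (72.0 to 77.3%). The regions of 3000 bp or more were different in makeup, with 54.7% gene interior and 35.9% intergenic. Without the first 400 kb of arm 3R, described below, 52 regions of that width remained, of which 35 were gene interior and 11 intergenic.

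**Figure D1:**
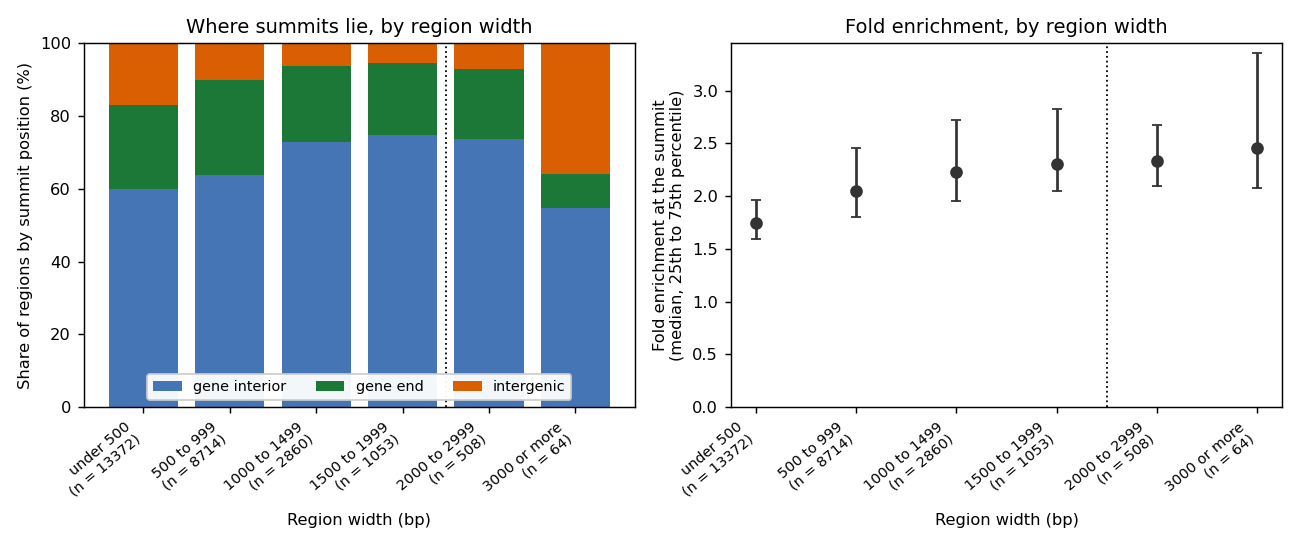
Left, share of regions (%) whose summit was in a gene interior, within 500 bp of a gene end or intergenic, for 6 classes of width in bp. Right, median fold enrichment of the same classes with the 25th to 75th percentile. The dotted line marks 2000 bp. The gene interior share rose from 59.9% to 74.7% below the limit, and the median fold was 1.74 in the narrowest class and 2.45 in the widest. Without the first 400 kb of 3R the median fold of the widest class was 2.26, against 2.34 from 2000 to under 3000 bp.

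Broad regions were of moderate height. Their median fold was 2.34 (25th to 75th percentile 2.10 to 2.74), against 1.90 in narrower regions. Reads piled up at the summit to a median of 132 in broad regions (80 to 2908) and of 100 in narrower ones (62 to 2124). Regions from 1500 to under 2000 bp were close to the broad ones, with a median fold of 2.31 and a median pileup of 132 reads. A fold of 3 or more was reached by 112 broad regions (19.6%) and by 9.77% of narrower ones. The tallest regions of the list were narrower, with a highest fold of 40.8 against 16.4 among broad regions. Across all 26571 regions width and fold had a Spearman rho of 0.53, and across the 572 broad regions it was 0.04. These are correlations across regions of 1 list that share libraries, depth and background model. The broad regions were selected on width itself, which can lower a correlation with width, so the 2 values are not comparable.

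Position differed with height. Of the broad regions with a fold from 2 up to 3, which were 370 of the 572 (64.7%), 289 were gene interior. From a fold of 2 up to 2.5 the gene interior share was 81.1% (exact binomial 95% interval 75.9 to 85.6%) in broad regions and 64.6% (63.4 to 65.8%) in narrower regions of like fold. The gene end share there was 13.0% against 23.6%. From 4 up to 6 the gene interior shares were 44.2% and 48.2%, and 13 of 43 broad regions were intergenic. At a fold of 6 or more, 8 of 16 broad regions were intergenic (50%, 24.7 to 75.3%), against 15.2% of narrower ones. Of these 8, 2 were at the start of 3R and 2 on Y.

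**Figure D2:**
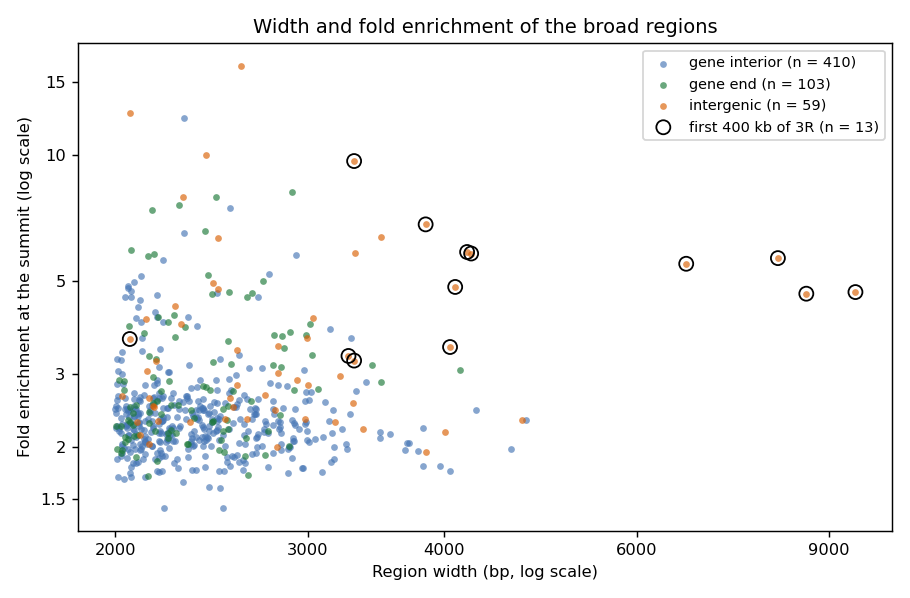
Width (bp, log scale) and fold enrichment at the summit (log scale) of the 572 broad regions, each a point coloured by where its summit lay. Circles mark the 13 regions in the first 400 kb of 3R. Of the points, 289 lie in gene interiors at folds of 2 to 3, and the 4 widest regions are all circled.

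Broad regions came with more local background. Background is the read level that the peak caller assumes around the summit, and its lowest value, 44.4 reads, was shared by 17.3% of broad and 40.2% of narrower regions. The median was 56.4 reads against 48.0. From 1500 to under 2000 bp, 20.9% of regions were at the lowest value and the median was 54.5 reads. The share of regions that were broad was 0.939% at the lowest background and 3.11% at 1.5 to 2 times that value. It was 12.1% (exact binomial 95% interval 7.32 to 18.4%) at 3 times or more, where 18 of 149 regions were broad. A background taken from windows around the summit would include the region's own reads, so it would not be a measure apart from width. Whether such windows were used is not given. The part of the background in the width of these regions was not tested.

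Where the summit sat also differed in broad regions. It fell in the first or last 20% of the region's length in 36.5% of broad regions and in 22.5% of narrower ones. From 1500 to under 2000 bp the share was 30.2%. Positions spread evenly along a region would give 40%. Among broad regions at gene ends it was 53.4%. The gap to the nearest other region had a median of 1414 bp (198 to 52074 bp) around broad regions and 981 bp around narrower ones, and no rows of the list were closer than 198 bp.

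By chromosome, 1.81% of the regions on 2L were broad, 2.36% on 2R, 2.17% on 3L, 2.08% on 3R and 2.32% on X. The exact binomial intervals of these 5 overlapped. Chromosome 4 had 1 broad region among 98. On Y 5 of 18 regions were broad (27.8%, 9.69 to 53.5%), a share that rests on few regions. Gene interiors held 81.0% of the broad regions on X and 68.2% of those on 2R.

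The widest regions lay together at the start of 3R. In its first 400 kb, 13 of 34 regions were broad, and they made up 6 of the 10 widest of the list, including the 4 widest. They ran from 122768 to 329671, and covered 31.5% of those 207 kb. The table places no gene there, and the first gene of the arm, Myo81F, a myosin gene, starts 237405 bp past the last of them. Coordinates are those of dm6 (Release 6).

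The widest of all, 3R 295234 to 304745, spanned 9512 bp with a fold of 4.70 (95% Poisson interval 4.50 to 4.91) and 2101 reads at its summit over a background of 446 reads. Next were 3R 210568 to 219144 with 8577 bp and a fold of 4.66, and 3R 160695 to 168773 with 8079 bp and a fold of 5.67. The region at 3R 323012 to 329671 had 6660 bp and a fold of 5.49. At 3R 312900 to 317133 the width was 4234 bp and at 3R 172591 to 176788 it was 4198 bp, with folds of 5.81 and 5.86. The highest pileup of the whole list, 2908 reads, belonged to 3R 122768 to 126076, 3309 bp wide, with a fold of 9.68 (9.33 to 10.03).

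Over these 13 regions the median pileup was 1120 reads and the median background 271 reads, against medians of 131 and 55.8 reads in the other 559 broad regions. All 13 had a background of at least 1.5 times the lowest. The 21 narrower regions among them had a median pileup of 437 reads. Copy number and mappability were not analysed here, and more open DNA and more copies of a sequence cannot be told apart from a pileup.

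**Figure D3:**
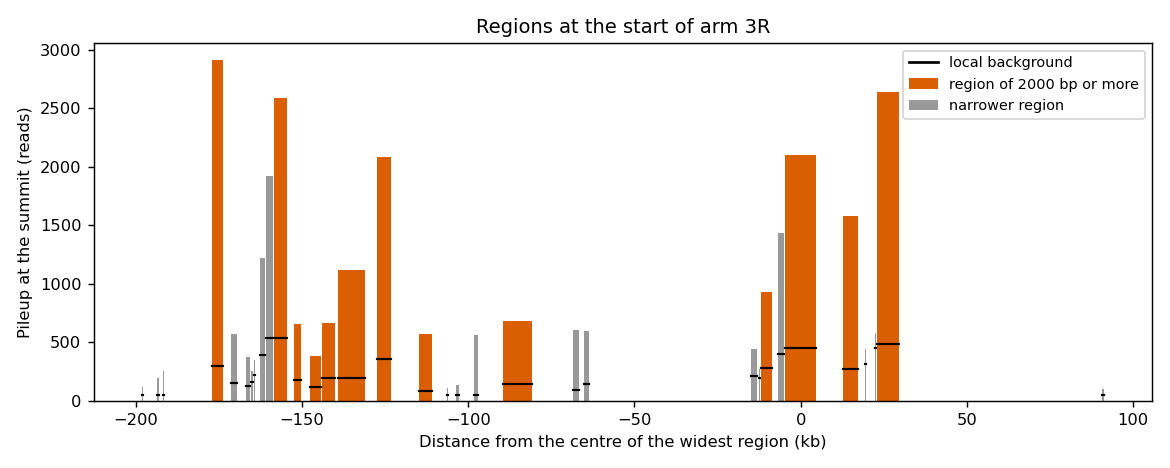
Pileup at the summit (reads) of the 34 regions in the first 400 kb of 3R, drawn at their width along the distance (kb) from the centre of the widest region. Orange bars are the 13 broad regions, grey bars narrower ones and black lines the local background. The broad regions stand in groups on either side of a stretch with no region, and their backgrounds run from 81.9 to 535 reads.

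Other intergenic broad regions lay mostly toward the centromeres. Outside the first 400 kb of 3R, 31 of 46 (67.4%) were within 5 Mb of the centromere-proximal end of an arm, with 6 on 2L, 8 on 2R, 14 on 3L and 3 on 3R. The same held for 22.3% of intergenic narrower regions and for 14.3% of all broad regions. That distance was chosen after the positions were seen, and the upper end of 2L, 3L and X was taken as that of the last annotated gene. Of the 59 intergenic ones, 36 (61.0%) lay over 10 kb from any gene end, against 24.7% of intergenic narrower regions, and outside the start of 3R 23 of 46 did. The highest fold of any broad region was intergenic, at 3L 24683049 to 24685653. Its fold was 16.4 (95% Poisson interval 15.2 to 17.6). It lay 39104 bp from the nearest gene, the homeobox gene scro, and its background was the lowest of the list. The second highest, X 9623492 to 9625554, had a fold of 12.6 (11.7 to 13.6) and lay 1472 bp from Hecw, a ubiquitin ligase gene. A wide but low region, 3L 26723905 to 26728617, had 4713 bp and a fold of 2.32 (1.92 to 2.78), 354559 bp from the nearest gene.

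On Y, 4 of the 5 broad regions had a Su(Ste) repeat as their nearest gene. Su(Ste) repeats are a source of piRNAs, small RNAs that silence repeats, and in the male germline they silence the Stellate genes of X. These 4 had folds of 10.004 (95% Poisson interval 9.56 to 10.47), 8.17, 7.93 and 5.83, and lay 2879, 409, 5733 and 2648 bp from a Su(Ste) copy. The fifth, with a fold of 3.48, lay 187658 bp from Ppr-Y. Another piRNA source, the flamenco locus lncRNA:flam on X, which restrains retrotransposons in the ovary's somatic cells, held 2 broad regions with folds of 3.89 (3.43 to 4.39) and 2.24. Background was 65.1 reads at the first and 136 reads at the second. Both loci consist of repeats, and the placement of reads that match several copies is not stated, so these values are uncertain.

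Broad regions overlapped 643 genes, of which 608 were protein-coding. That is 4.36% of the 13946 protein-coding genes, and 3.07% had a broad region within 500 bp of an end. For narrower regions the same shares were 69.6% and 66.7%. The share with a broad region was higher among longer genes. The share was 0.484% of genes under 1000 bp, 4.11% of those from 2000 to under 4000 bp and 19.1% of those of 32000 bp or more. Protein-coding genes with a broad region had a median length of 7134.5 bp against 2161 bp for all, and both had a median of 2 RefSeq transcripts. The host genes of gene interior summits were of similar length for broad and narrower regions, with medians of 13430 and 14689 bp.

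Most broad regions stayed within the outline of a gene. Both edges lay inside 1 gene in 398 of 572 (69.6%), against 76.0% of narrower regions. The part of a gene that is covered depends on the width limit and on the gene's length, so the next counts are a description. Of the 132 genes of 2000 to under 4000 bp with a broad region, 111 had at least 50% of their span under it and 49 at least 80%. Over protein-coding genes of any length 202 had 50% or more covered, 87 had 80% or more and 18 were covered whole.

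The larval serum protein gene Lsp1beta is an example. Lsp1beta encodes a storage protein that the fat body secretes, and its 2817 bp were covered for 94.7% by 1 region of 2667 bp that began 114 bp past the lower end and stopped before the upper end. The fold was 2.33 (95% Poisson interval 1.94 to 2.77). Lsp2, another storage protein gene, had 80.9% covered at a fold of 2.22 (1.92 to 2.57), and Fbp1, the receptor through which the fat body takes storage proteins back up, had 86.3% at 2.71 (2.28 to 3.19). These genes lie on 2L and at separate places on 3L. Hsp68, a stress-induced chaperone gene, had 89.9% covered at a fold of 2.81, and resilin, which encodes an elastic cuticle protein, had 90.1% at 2.12. The summits in Lsp1beta, Lsp2, Fbp1 and Hsp68 were all gene interior. A region over a gene is not a measure of its expression, and RNA was not analysed here.

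**Figure D4:**
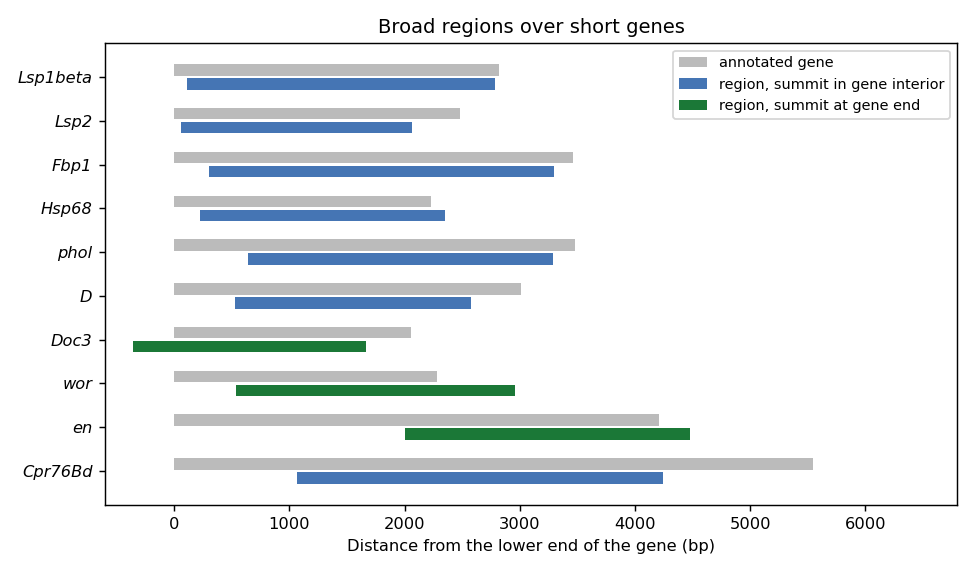
Annotated genes (grey) and the broad region over each (coloured by where its summit lay), drawn from the gene's lower end in bp, for 10 members of the gene lists. In Lsp1beta, Lsp2 and Fbp1 the region lies within the gene, covering 80.9% to 94.7% of it, while in Doc3, wor and en it runs past an end.

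The widest gene interior regions were low and long. CG13991 on 2L had 4748 bp (2L 6139881 to 6144628) at a fold of 2.33 (95% Poisson interval 1.93 to 2.79), covering 84.3% of the gene. In ec (echinus), which is needed for cell death in the developing eye, 4607 bp (X 3852254 to 3856860) had a fold of 1.98 (1.65 to 2.35). In Svil, the gene of an actin-binding protein of the villin family, 4279 bp (3L 2402949 to 2407227) had a fold of 2.45 (2.09 to 2.86).

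A few genes held more than 1 broad region. Myo81F held 8, with folds of 1.87 to 3.09, spread over a span of 1965857 bp. CG34417 held 3, of 2694, 2377 and 2914 bp, with folds of 2.10, 2.34 and 2.07. A further 22 genes held 2 each. Cytoskeletal and junction genes among them were futsch (a microtubule-associated protein), jbug and cher (filamins), mwh (wing hair planar polarity) and Svil. Adhesion and matrix genes were Nrg (neuroglian), trol (perlecan) and DIP-lambda. Signalling genes were Egfr (EGF receptor), ex (expanded, of the Hippo pathway), Tao and Tlk (kinases), raskol and Exn. Chromatin and transcription genes were Mi-2 (a nucleosome remodeller), skd (a Mediator subunit) and Cph. The last were bbg, kmr, Pzl, Ca-alpha1T and lncRNA:flam.

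Within such genes the regions could differ in height. In futsch a region near the lower end had a fold of 5.13 (95% Poisson interval 4.65 to 5.65) and one further in, 3282 bp wide, had 2.40 (2.03 to 2.81). In skd, the region next to the upper end had 4.57 (4.11 to 5.07) and the other 2.11 (1.75 to 2.51). In ex, the region over the lower end had 4.09 (3.71 to 4.51) and the interior one 2.12 (1.81 to 2.46). Tlk had 7.41 and 3.66. In Egfr both were low, at 2.25 and 1.94. The Poisson intervals of the 2 regions did not overlap in futsch, skd, ex or Tlk.

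In windows of 50 kb, the most broad regions was 5, in 1 window at the start of 3R (150001 to 200000). Another 10 windows held 3, 1 of them also at the start of 3R. Of the others with 3, the 3 with the most covered bases are given here. On 3L, the window 1700001 to 1750000 held regions nearest CG7991, the phagocytic receptor gene drpr and the chitinase gene Cht2. Their folds ran from 1.43 to 1.80, and the median background was 96.6 reads. In 1200001 to 1250000 of the same arm lay those nearest LysP (a lysozyme gene), mwh and Sac1, with folds of 2.00 to 2.34 and a background of 75.6 reads. The window on X held the 3 of CG34417. A single broad region lay in 451 windows, and 43 windows held 2.

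Some broad regions joined the ends of neighbouring genes. A broad region held ends of 2 or more genes in 81 cases (14.2%), against 2.17% of narrower regions and 9.97% of those from 1500 to under 2000 bp. A wider region reaches more gene ends by its width alone. The count includes genes that overlap or are nested, such as CG30286 and CG30287 within Egfr. The highest such fold over protein-coding neighbours was 7.41 (95% Poisson interval 6.72 to 8.14) between Rala, a small GTPase gene, and Tlk (X 3718656 to 3720817). It was 5.92 (5.35 to 6.53) between dome, the JAK-STAT receptor gene, and Ubqn (X 19681963 to 19684032). Between GstE12, a glutathione transferase gene, and Eps-15, an endocytosis gene, it was 5.78, and between Mob2 and CG7394 it was 5.74. The region on 3L at 7911381 to 7915516, 4136 bp wide with a fold of 3.05, overlapped pbl, a cytokinesis gene, CG8281, Tmem43 and lncRNA:CR32368. The gene table gives no strand, so it cannot be told whether these ends were starts or stops.

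Small RNA genes lay whole within a few. The region on 2R at 9552083 to 9554370 held the miRNA gene mir-14, which acts in cell survival and fat metabolism, with its host lncRNA:CR43651. It had a fold of 7.59 (95% Poisson interval 7.14 to 8.06) and 1058 reads at the summit over a background of 139 reads. Other miRNA genes inside broad regions were mir-3645 (fold 3.14), mir-4970 (1.90) and mir-4941. The region over sta, a ribosomal protein gene, held 2 snoRNA genes with it at a fold of 2.40. In all 28 broad regions held at least 1 whole gene (4.90%), against 0.604% of narrower regions and 3.32% of those from 1500 to under 2000 bp. A wider region has room for more whole genes, so this share depends on the width limit.

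Tall broad regions lay at several developmental genes. The homeobox gene en, which marks posterior compartments, had its upper end in a region of 2476 bp (2R 11526005 to 11528480), and the fold was 7.95 (95% Poisson interval 7.29 to 8.65). At wor, a snail-family gene of neural stem cells, 2415 bp (2L 15423836 to 15426250) had 6.58 (5.90 to 7.32). In the Sox genes Sox100B and D the folds were 12.2 (11.2 to 13.3) and 4.85 (4.31 to 5.43). The zinc finger gene jim had 7.45 (6.89 to 8.05), over 10 kb from its ends, and wts, the Hippo pathway kinase gene, had 5.78 (5.26 to 6.34) in its interior.

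Developmental gene lists differed in their counts. Of 70 developmental regulators known as Polycomb targets, 7 (10%) overlapped a broad region, against 4.36% of protein-coding genes with a much shorter median length of 2161 bp against 13284 bp. Beside en, wor and D these were the disc and eye genes eya (fold 2.62), salr (1.98), ct (2.60) and Doc3 (1.94). Narrower regions overlapped 66 of the 70. Hox genes specify segments along the body axis. Of the 8, 0 had a broad region over the gene or at an end, and 8 had a narrower region over it. Leg and antenna disc genes had 0 of 20, Notch pathway genes 0 of 15 and insulator protein genes 0 of 12. At the share over all protein-coding genes, lists of this size would hold 0 or 1 such gene, but that share does not allow for gene length. The median length was 30563 bp for Hox genes and 16158 bp for leg and antenna disc genes. Of all protein-coding genes from 16000 to under 32000 bp, 12.2% had a broad region. Notch pathway and insulator protein genes were shorter, with medians of 1305 and 3635.5 bp. Wing and haltere disc genes had 2 of 33 (6.06%), en and salr.

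The other signalling and chromatin lists held 1 to 3 members each, and shares in lists this short are to be read against 4.36% over all protein-coding genes with care. Hippo pathway genes, with a median length of 16995 bp, had 3 of 15 overlapping a broad region, namely ex, wts and the cadherin gene ds (fold 2.40). Ecdysone genes had 3 of 15, the nuclear receptor genes Hr38 (fold 2.25) and Hr4 (1.73) and Eip93F (2.56), in a list with a median length of 39895 bp. A further region (2.37) began 323 bp past the upper end of br, the Broad transcription factor gene, and lay within dor, a vacuolar sorting gene, covering 69.3% of it and none of br. EGF receptor pathway genes had 1 of 14, which was Egfr, and JNK and AP-1 genes 1 of 11, the Fos gene kay (3.44, 95% Poisson interval 3.07 to 3.84). Trithorax group genes had 2 of 13, kis (1.94) and skd. Polycomb group protein genes had 2 of 19, which were phol (2.18) and escl (2.39), paralogues of pho and esc. The escl region also covered dgt2 whole.

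Ribosomal protein genes had 4 of 85 overlapping a broad region (4.71%), RpL13 (fold 2.32), RpS15 (2.53), RpLP0 (2.94) and RpL4 (2.75), close to the 4.36% over all protein-coding genes. That list was made from symbols beginning with RpL or RpS, so sta is not in it. RpL24 had one 153 bp below its lower end (1.71). The other lists here had 4 to 19 genes, too few to set a share against 4.36%. Heat shock genes had 2 of 16, Hsp68 and Hsp83 (3.40, 95% Poisson interval 3.09 to 3.74). Both had a raised background, of 87.6 reads in Hsp68 and 126 reads in Hsp83. Actin and adhesion genes had 2 of 14, zip, a non-muscle myosin gene (2.35), and Vinc, the vinculin gene (1.61). The fat body genes Lsp1beta, Lsp2 and Fbp1 were 3 of 9 (33.3%). Hemocyte genes had 1 of 16, Pxn, a peroxidase of the extracellular matrix (2.08). Neuron genes had 1 of 19 (futsch), glia genes 1 of 10 (loco, 2.72) and germline genes 1 of 9 (zpg, by 1.56% of its span, with the summit in Rexo5). Snail family and neural genes had 1 of 4 (wor). Muscle genes had 0 of 18, while a region 269 bp below Mef2 (2.34) covered 89.9% of Etf-QO, a mitochondrial electron transfer gene.

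The large families of short genes had shares below 4.36%. Chemoreceptor genes had 2 of 179 (1.12%), Ir41a (fold 2.57) and Gr94a (3.14), and cuticle protein genes 2 of 126 (1.59%), Cpr73D (2.25) and Cpr76Bd (1.87). Their median lengths were 1691 and 1035 bp, and 1.51% of all protein-coding genes from 1000 to under 2000 bp had a broad region. Of the core histone genes 0 of 111 had a region of any width. They form a repeated array, and the placement of reads that match several copies is not stated. Of 10 wing and haltere disc markers, 1 (en) had a broad region over it and 9 a narrower one. Narrower regions also overlapped 6 of 7 neuron, 6 of 7 hemocyte, 3 of 3 glia, 4 of 4 muscle and 3 of 3 germline markers. They overlapped 0 of 3 fat body markers, while broad regions overlapped 2 of these 3, Lsp2 and Fbp1. The broad regions covered 80.9% of Lsp2 and 86.3% of Fbp1, which left little room for a narrower one. Within 500 bp of an end, 2 of the 3 fat body markers had a narrower region. Broad regions also overlapped 1 of 7 hemocyte markers (Pxn) and 0 of the neuron, glia, muscle and germline markers. Narrower regions overlapped 69.6% of all protein-coding genes, so the marker counts do not single out the labelled tissue.

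**Figure D5:**
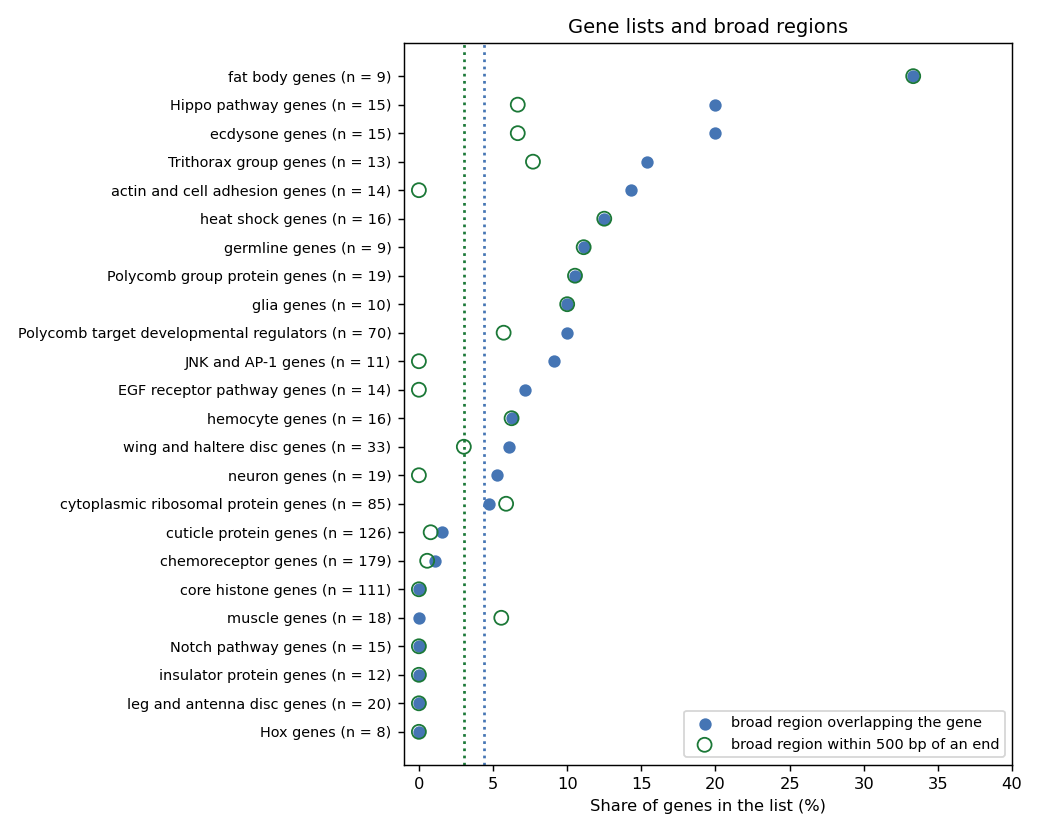
Share (%) of the genes in each list of 8 genes or more that overlapped a broad region (filled) or had one within 500 bp of an end (open). Dotted lines are the shares over all protein-coding genes, 4.36% (blue) and 3.07% (green). Hox, leg and antenna, insulator, Notch and core histone genes are at 0, and the fat body list of 9 genes is at 33.3%.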

How the data were processed

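The 2 D17 libraries, prepared with a commercial ATAC-seq kit per the labels' protocols, are represented by 1 deposited peak list of 10 columns. The submitters' processing notes list, with no order, the peak caller MACS2 (2.2.6), the aligner Bowtie2 (2.3.5.1) and the read trimmer Trim Galore (0.6.4). They also list bedtools (2.29.2) and SAMtools (1.13), with dm6 and BDGP6 as builds. Roles, pooling of libraries and any shift for the transposase offset are not given in the sources used here. Columns have no header, so their meaning was read from the layout and values. The deposited fold is a ratio of summit pileup to local background. The deposited −log10 p-value and q-value belong to the summit, the score follows the q-value, and the last column is the authors' summit position. In MACS2 a local background can be taken from windows around the summit. Whether that was done here is not given, and any effect on the fold of wide regions was not tested.

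The pileup and background behind each row were recovered from its fold and p-value, with 1 read added to both sides of the fold and a Poisson model for p. The largest relative error of a refitted −log10 p was 2.11e-05. Depth of the libraries is unknown. Intervals of a fold hold its background fixed and take the exact 95% Poisson limits of the pileup, and shares have exact (Clopper-Pearson) limits. Both are for counting error alone, because reads without molecular identifiers may be copies of 1 molecule.

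Genes came from RefSeq's Release 6 table (17807 genes, without strand or exons). Summits within 500 bp of either gene end were gene end. No sequence was used here. Symbols of the gene lists that matched no protein-coding gene were left out. Members and the 25 gene lists were chosen with earlier results of these data known. No test was run, because 1 list stands for the group. Named genes were those at the 10 widest and 10 highest regions, at the limit, with the most broad regions (ties kept), in the 5 densest windows of 50 kb, and up to 4 per list. The Polycomb target list names all 7 of its members. Other genes, such as those with shared ends, whole genes, resilin and wts, were chosen after their values were seen. Scripts were checked on simulated data. Python 3.11.15, numpy 2.4.6, pandas 2.3.3, SciPy 1.17.1 and matplotlib 3.10.9 were used.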

Additional observations from a re-analysis of the deposited data

How the results depend on the processing

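The width limit sets the count and much of what follows from it. From 1500 bp there were 1625 broad regions, 8.96% of protein-coding genes had one at an end, and the median fold of narrower regions was 1.87. From 3000 bp there were 64, with a median fold of 2.45 (narrower 1.90), a median background of 64.1 reads, 9.38% of summits at gene ends and 0.237% of genes with one at an end. Leaving the first 400 kb of 3R out of these gave a median fold of 2.26 and a median background of 57.3 reads. With a window of 200 bp the gene end share was 7.52% for broad and 8.87% for narrower regions, and with 1000 bp 33.2% and 41.6%. Broad was below narrower at each window, but by little at 200 bp, and no intervals are given for these shares. Genes with a broad region at an end were 2.02% with the window of 200 bp and 4.43% with that of 1000 bp. With the summit inside the window of 500 bp they were 0.954%. Among regions with a score at or above the median, narrower regions had a fold of 2.25 and 27.4% at gene ends. The 540 broad regions of that kind had 2.38 and 18.5%, so the folds were closer than over all regions. Without regions of raised background the broad median background was 51.5 reads and the narrower values were 1.90 and 22.8%. Joining rows up to 100 bp apart changed nothing, since none were that close. Joining up to 300 bp, chosen after seeing the data, gave 796 broad regions, 4.53% of genes and a narrower fold of 1.90. Leaving out the first 400 kb of 3R, also chosen afterwards, or chromosomes 4 and Y, moved none of the 7 results beyond its interval or 1.5 times its count. The cause was not tested for values that moved, beyond the settings' own construction. No replicate could be left out and no paired analysis was possible, because the 1 list names no replicate and was taken to stand for both libraries.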
